A study of Mus musculus with 6 samples.

Results

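A total of 97 genes had another dominant transcript in myotubes than in myoblasts of C2C12, a mouse myoblast line that fuses into multinucleated muscle fibres in low serum. The share of a transcript is its estimated count divided by the summed estimated counts of its gene in the same library, here given in percent. A gene belonged to the group when it had at least 300 estimated counts in each of the 4 myoblast and myotube libraries, when 1 transcript had the largest share in both myoblast libraries and another in both myotube libraries, and when the mean share of the latter was at least 40 percentage points higher in myotubes. Below, the former is called the myoblast transcript and the latter the myotube transcript. The 97 genes were 1.59% of the 6093 genes with this minimum and at least 2 transcripts with a count, out of 24758 genes with a count in the series. The members were chosen by their shares in the myoblast and myotube libraries, so these shares are described and not tested.

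The mRNA of 3 kinds of C2C12 cell was sequenced, with 2 libraries for each. Myoblasts were growing cells taken near confluence (day 0), and myotubes and reserve cells came from cultures kept for 7 days in low serum per the labels, while the methods give a shorter time. Reserve cells are the mononucleated cells that do not fuse in such cultures, and both kinds were parted by mild trypsin. No genotype or agent beyond the medium is named for any group, and a single cell line stands for muscle. The replicates are described as biological, nothing tells whether they were separate cultures, and p-values measure only the spread between these samples, which may be technical.

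Most genes with several exons can give more than 1 messenger RNA, by the choice of a promoter, of the exons that are kept and of the site where the transcript ends. Muscle is among the tissues in which this choice changes most, and tropomyosin, the calcium pump of the sarcoplasmic reticulum and the mitochondrial phosphate carrier are textbook examples of muscle isoforms. RNA-binding proteins of the PTB, RBFOX, MBNL, CELF and RBM families are known regulators of exons in muscle.

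The libraries held between 15658875 and 20055078 estimated counts. The summed level of 18 myotube markers, such as the actin gene Acta1 and the creatine kinase gene Ckm, was 11855 and 11901 CPM (counts scaled by library size) for reserve cells, beside 250 and 261 CPM for myoblasts and 51286 and 50629 CPM for myotubes. Reserve cells thus held 23.3% of the myotube level and 46.5 times that of myoblasts, and all 18 markers lay between the other groups in both reserve cell libraries. Of 12 markers of satellite cells, Notch signalling and matrix, 11 were higher in both reserve cell libraries than in both myotube libraries, and 6 were higher than in both myoblast libraries. The 8 markers of dividing cells summed to 2356 and 2377 CPM in myoblasts, 1033 and 1062 in reserve cells and 241 and 255 in myotubes. Markers of leukocytes, endothelium, adipocytes and neural cells, 13 genes in all, summed to between 5.79 and 13.3 CPM in a library, and 5 of them had no count in any library.

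The coding exons by which the leading transcripts differ are shown first, because they are what the shares count. Capitals mark bases that are coding in only 1 of the 2 transcripts of a gene, and lower case gives up to 12 neighbouring coding bases of the same transcript, so that the join can be read. All are from GENCODE transcripts on GRCm38, 5′ to 3′ on the strand of the gene. Slc25a3 encodes the carrier that brings phosphate into mitochondria, and its transcripts hold 1 of 2 adjacent exons, at chr10:91121922-91122043 with 122 coding bases in the myoblast transcript and at chr10:91122207-91122331 with 125 coding bases in the myotube transcript, both on the minus strand. Itga7 encodes the laminin receptor subunit integrin α7, and its transcripts likewise trade an exon of 132 coding bases (chr10:128941445-128941576, plus strand) for one of 120 (chr10:128941822-128941941).
Slc25a3-201, myoblast transcript: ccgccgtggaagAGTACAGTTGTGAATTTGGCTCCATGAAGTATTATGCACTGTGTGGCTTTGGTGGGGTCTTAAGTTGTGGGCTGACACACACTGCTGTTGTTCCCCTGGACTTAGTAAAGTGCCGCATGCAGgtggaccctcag
Slc25a3-206, myotube transcript: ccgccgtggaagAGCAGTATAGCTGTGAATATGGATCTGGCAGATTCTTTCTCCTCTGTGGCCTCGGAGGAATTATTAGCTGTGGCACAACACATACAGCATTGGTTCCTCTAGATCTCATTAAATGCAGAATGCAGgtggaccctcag
Itga7-202, myoblast transcript: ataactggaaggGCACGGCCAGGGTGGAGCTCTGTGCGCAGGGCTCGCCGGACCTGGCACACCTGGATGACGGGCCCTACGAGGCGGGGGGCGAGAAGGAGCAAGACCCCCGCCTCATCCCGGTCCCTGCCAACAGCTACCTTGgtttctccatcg
Itga7-201, myotube transcript: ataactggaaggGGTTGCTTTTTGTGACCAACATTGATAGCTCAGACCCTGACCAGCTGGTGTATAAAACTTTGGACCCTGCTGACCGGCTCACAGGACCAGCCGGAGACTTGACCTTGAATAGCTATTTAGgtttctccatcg

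Another kind of difference lies at the ends of the coding sequence. Tpm1 and Tpm3 encode tropomyosins, which lie along the actin filament, and in both genes a transcript with 744 coding bases gave way to one with 852. The first coding exon of the myoblast form of Tpm1 lies at chr9:67043578-67043709 and that of the myotube form at chr9:67049019-67049132, both on the minus strand, and that of the myoblast form of Tpm3 at chr3:90079732-90079863 on the plus strand. Read without gaps, the myoblast exons of the 2 genes had the same base at 84 of 132 positions (63.6%). Atp2a2 encodes the calcium pump SERCA2, and its transcripts end in different exons, with 149 coding bases at chr5:122457154-122457302 in myoblasts and 11 at chr5:122454294-122454304 in myotubes, both on the minus strand. Capzb encodes the β subunit of the protein that caps actin filaments, and its last coding exons at chr4:139291003-139291087 and chr4:139288861-139288960 (plus strand) hold 85 and 100 coding bases. The 85 bases are also in the myotube transcript of Capzb, where they are untranslated.
Tpm1-211, myoblast transcript: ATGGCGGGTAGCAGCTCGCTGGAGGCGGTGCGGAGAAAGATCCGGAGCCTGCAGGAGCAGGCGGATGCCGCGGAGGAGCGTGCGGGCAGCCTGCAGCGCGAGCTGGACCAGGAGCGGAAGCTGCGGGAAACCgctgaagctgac
Tpm1-205, myotube transcript: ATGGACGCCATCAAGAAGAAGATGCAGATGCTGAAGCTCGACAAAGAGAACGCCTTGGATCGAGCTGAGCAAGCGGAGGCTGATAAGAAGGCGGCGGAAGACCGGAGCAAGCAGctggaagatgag
Tpm3-201, myoblast transcript: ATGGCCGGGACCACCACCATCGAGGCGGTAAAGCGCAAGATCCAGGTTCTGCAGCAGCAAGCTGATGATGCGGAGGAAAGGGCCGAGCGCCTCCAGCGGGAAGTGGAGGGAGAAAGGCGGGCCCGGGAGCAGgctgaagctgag
Atp2a2-201, myoblast transcript: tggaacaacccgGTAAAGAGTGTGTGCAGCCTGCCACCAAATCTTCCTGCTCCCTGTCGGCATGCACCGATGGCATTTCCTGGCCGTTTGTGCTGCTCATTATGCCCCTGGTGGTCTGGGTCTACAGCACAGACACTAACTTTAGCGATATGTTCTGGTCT
Atp2a2-202, myotube transcript: tggaacaacccgCAATACTGGAG
Capzb-204, myoblast transcript: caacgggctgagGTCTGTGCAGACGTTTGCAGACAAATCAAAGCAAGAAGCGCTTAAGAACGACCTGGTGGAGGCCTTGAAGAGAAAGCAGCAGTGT
Capzb-203, myotube transcript: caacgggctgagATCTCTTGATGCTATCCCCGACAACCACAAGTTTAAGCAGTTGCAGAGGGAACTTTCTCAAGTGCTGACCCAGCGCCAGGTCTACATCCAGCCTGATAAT

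In other genes the difference is a single stretch inside the coding sequence that 1 form lacks, a whole exon in Anxa7 and Flnc and a part of an exon in Nptn. The myotube transcript held it in Anxa7 (66 coding bases at chr14:20467458-20467523, minus strand), an annexin. The myoblast transcript held it in Flnc (99 at chr6:29452799-29452897, plus strand), the muscle filamin that cross-links actin at the Z-disc, and in Nptn (12 at chr9:58650497-58650508, plus strand), a cell adhesion molecule. Each of these 3 lengths is a multiple of 3, so the frame is kept. Anxa7 and Nptn were chosen for display after their values were seen.
Anxa7-202, myotube transcript: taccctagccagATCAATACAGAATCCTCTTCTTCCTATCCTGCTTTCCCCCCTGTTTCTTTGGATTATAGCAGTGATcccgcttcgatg
Flnc-201, myoblast transcript: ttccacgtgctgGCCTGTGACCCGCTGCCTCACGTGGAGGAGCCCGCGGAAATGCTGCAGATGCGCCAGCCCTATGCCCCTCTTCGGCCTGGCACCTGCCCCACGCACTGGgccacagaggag
Nptn-201, myoblast transcript: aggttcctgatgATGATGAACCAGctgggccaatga

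Over the 97 genes, the mean share of the myotube transcript was higher in myotubes by a median of 55.3 percentage points, with a range of 40.3 to 98.3. The rise was at least 50 points in 64 genes, at least 70 in 23 and at least 80 in 10. The median share of the myotube transcript was 13.2% in myoblasts and 75.7% in myotubes, and that of the myoblast transcript was 72.4% in myoblasts and 16.2% in myotubes. The groups overlapped in 0 genes, which the rule nearly fixes, and in 65 genes the smaller myotube share exceeded the larger myoblast share by 40 points or more. The genes just inside the threshold were Pcnx with a rise of 40.9 points, Sun2 with 40.5 and Snap23 with 40.3, and those just outside were Zfp142 with 39.8, Rps25 with 39.7 and Asph with 39.6.

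**Figure D1:**
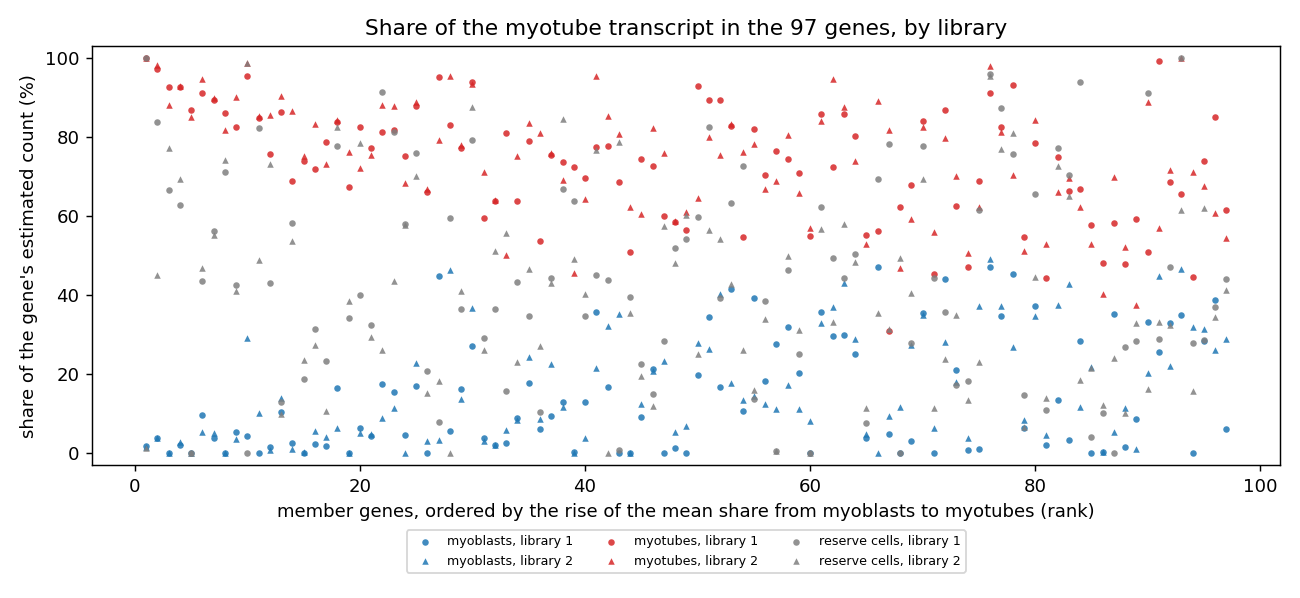
Share of the myotube transcript in percent of the estimated count of its gene (y axis) in each of the 97 genes, ordered by the rise of the mean share (x axis, rank), with circles for library 1 and triangles for library 2 of myoblasts, myotubes and reserve cells. The means of the 2 libraries have a median over genes of 13.2% for myoblasts and 75.7% for myotubes by the choice of the genes. Reserve cell points, which took no part in the choice, spread between and around them, and their means have a median of 42.5%.

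Replicates of a share differed by more than counting error. The 95% Wilson interval of a share, which covers counting error only, had a median half-width of 1.68 points and at most 5.66 points at between 275 and 45274 estimated counts per gene and library. The 2 libraries of a group differed by a median of 10.3 points for reserve cells, 5.79 for myoblasts and 6.50 for myotubes, and their intervals did not overlap in 70, 69 and 61 of the 97 genes. They differed by more than 20 points in 30, 17 and 15 genes. In 31 genes the replicates lay within 10 points of each other in all 3 groups, and in 51 genes within 20.

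Genes of the actin filament, the sarcomere and the Z-disc formed a set with 11 of the 97 members. Sets by function were drawn up after the values had been seen, and 38 members were placed in none. The median rise in this set was 64.9 points (range, 48.3 to 85.2). Filamin C had one of the largest. Its shorter transcript Flnc-202, without the exon shown above, took 9.83% and 5.50% of the gene in myoblasts, 43.6% and 46.9% in reserve cells and 91.1% and 94.6% in myotubes. The long tropomyosin transcript Tpm1-205 took 5.35% and 3.61% in myoblasts, 42.6% and 41.0% in reserve cells and 82.4% and 90.2% in myotubes. In both genes the reserve cell libraries lay close together and apart from both other groups.

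Tpm3 differed at both ends of its coding sequence, as Tpm1 did, and also in a pair of internal exons of 76 coding bases each, of which each transcript holds 1. Its long transcript Tpm3-205 took 0.069% and 0.326% in myoblasts, 18.8% and 23.6% in reserve cells and 73.9% and 75.2% in myotubes. Both tropomyosin genes thus went from the 744 to the 852 base coding sequence, but the reserve cell shares of Tpm3 lay nearer to the myoblast end. Of the 3 PDZ and LIM domain genes, Pdlim5-203 (0% and 3.05%, 20.7% and 15.4%, 66.1% and 66.8% in myoblasts, reserve cells and myotubes) and Pdlim7-202 (3.93% and 3.19%, 29.2% and 26.2%, 59.5% and 71.1%) end in another exon than their myoblast transcripts and are far shorter in coding sequence, with 642 against 1773 and 564 against 1371 coding bases. Pdlim3-203 is longer than its counterpart, with 1092 against 948 coding bases. Its share was 1.49% and 5.30% in myoblasts, 51.9% and 48.2% in reserve cells and 58.6% and 58.8% in myotubes, so that reserve cells stood next to myotubes. Capzb-203 took 41.6% and 17.7% in myoblasts, 63.4% and 42.8% in reserve cells and 82.8% and 83.3% in myotubes, with reserve cell and myoblast libraries almost touching.

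Genes of calcium, mitochondria and membranes showed switches of like size. The SERCA2a form of the calcium pump, Atp2a2-202, took 1.60% and 0.920% in myoblasts and 75.8% and 85.5% in myotubes. In reserve cells it took 43.1% in one library and 73.2% in the other, a wide gap between replicates. The exon of the phosphate carrier gave tight values, with 3.91% and 5.27% for Slc25a3-206 in myoblasts, 56.1% and 55.2% in reserve cells and 89.4% and 89.8% in myotubes. Rtn4, the reticulon gene whose long products shape the endoplasmic reticulum and limit axon growth, went from a transcript with 1125 coding bases to one with 3486, Rtn4-205. Its share was 34.8% and 37.2% in myoblasts, 87.4% and 76.9% in reserve cells and 82.6% and 81.2% in myotubes, with no separation of reserve cells from myotubes.

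The receptor Itga7 was a case of even spacing. The share of Itga7-201 was 25.1% and 29.0% in myoblasts, 50.5% and 48.4% in reserve cells and 80.3% and 73.9% in myotubes, and no library of a group lay within the range of another group. Smaller genes of the list of muscle isoforms were less tight. Snap23-203, of a protein of vesicle fusion, took 6.27% and 29.0%, 44.2% and 41.4%, and 61.5% and 54.4% in the same order. Phka1-201, of the regulatory subunit of phosphorylase kinase, took 0% and 32.0%, 27.8% and 15.7%, and 44.6% and 71.2%, so that reserve cells and myoblasts overlapped. The splicing factor transcript Puf60-202 took 20.97% and 17.96%, 17.2% and 34.9%, and 62.5% and 70.1%, and Ndrg2-201, of a gene linked to stress and growth arrest, took 39.2% and 14.4%, 13.8% and 16.1%, and 81.9% and 78.3%. In both of these, at least 1 reserve cell library lay below the lowest myoblast library.

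**Figure D2:**
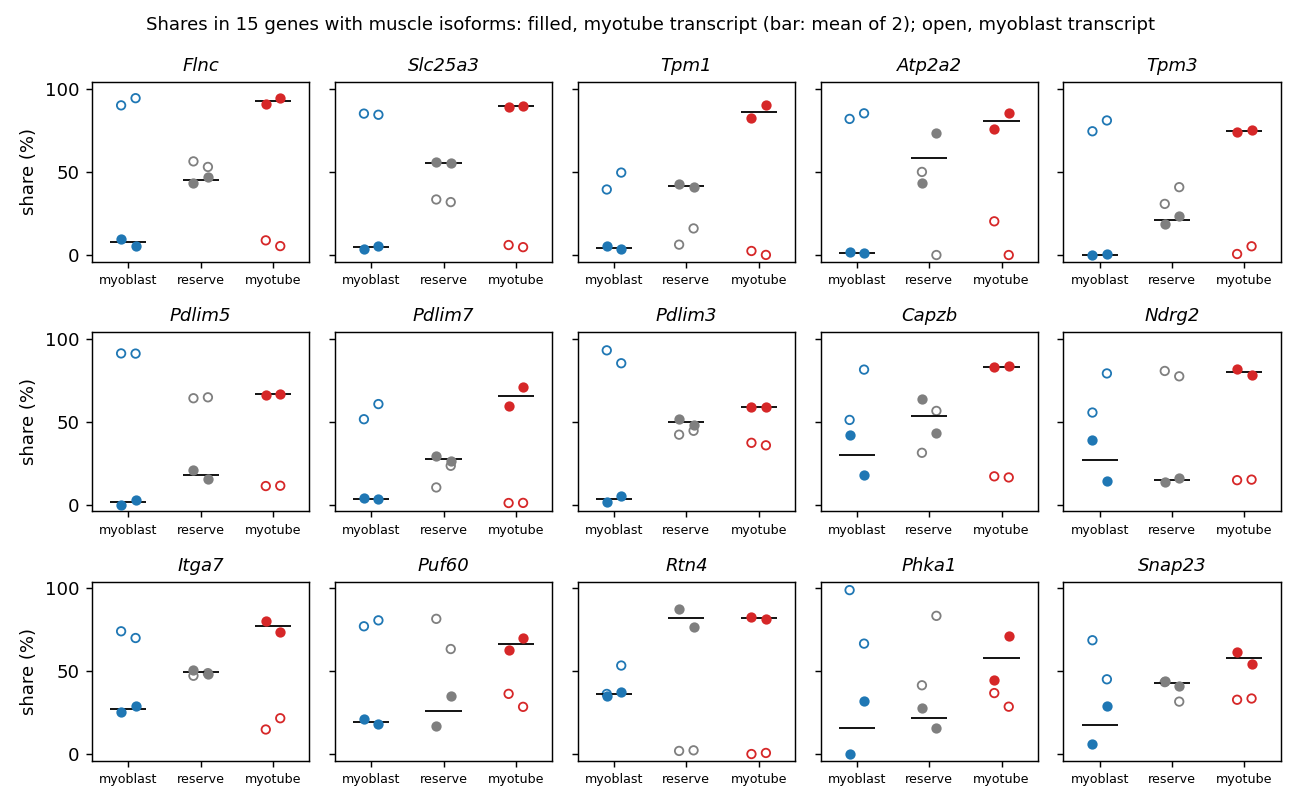
Share in percent (y axis) of the myotube transcript (filled, with a bar at the mean of 2 libraries) and of the myoblast transcript (open) in the libraries of myoblasts, reserve cells and myotubes (x axis), for the 15 members on a list of genes with muscle isoforms. In reserve cells Slc25a3 lies at 56.1% and 55.2%, between the other groups, Rtn4 at 87.4% and 76.9%, with myotubes, and Ndrg2 at 13.8% and 16.1%, at the low end of myoblasts.

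A list of 152 genes with muscle isoforms known from the literature held 124 genes with the minimum count, and 15 of these (12.1%) were members, beside 1.59% of all genes with the minimum and several transcripts. The list was written with results of these data known and is no independent evidence. Of the 49 genes with the minimum count on a list of 64 splicing regulators, 0 were members. This holds for the list only, which leaves out the splicing factor gene Puf60, a member.

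The 10 largest rises included 7 genes outside the list of muscle isoforms. Naca encodes a chaperone subunit of nascent chains, and its muscle form, known as skNAC, carries a very large extra exon: the myoblast transcript has 645 coding bases and the myotube transcript 6561. Naca-202 took 2.19% and 2.84% in myoblasts, 62.8% and 69.3% in reserve cells and 92.6% and 92.8% in myotubes. The share of a count favours a transcript of this length, and the shares of Naca given here are not divided by length. After division by length the myotube transcript was still above 50% in myotubes in 90 of the 97 genes. This count is over all members and does not give the value of Naca itself. Pakap, a gene of kinase anchoring proteins, went from a transcript labelled as a target of nonsense mediated decay, with 417 coding bases, to one with 3409. Pakap-203 had 0 of 1756 counts in myoblasts, which allows a share of up to 0.171%, and took 66.6% and 77.1% in reserve cells and 92.7% and 88.2% in myotubes.

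Other large rises came with less certain transcripts. For Ppib, a prolyl isomerase of the endoplasmic reticulum, and Ift80, of transport in cilia, the myotube transcript is annotated as a retained intron without coding sequence. Ppib-202 took 1.79% and 1.61% in myoblasts, 100% and 1.30% in the 2 reserve cell libraries and 100% in both myotube libraries. Ift80-204 took 4.51% and 29.1% in myoblasts, 0% and 98.7% in reserve cells and 95.4% and 98.8% in myotubes. In these 2 genes nearly all counts moved from one transcript to the other between replicates of reserve cells, whereas the gene totals of the same libraries were alike, at 251 and 279 CPM for Ppib and 33.1 and 35.1 CPM for Ift80.

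Ube2c, a ubiquitin-conjugating enzyme of mitosis, Rprd2, which binds the tail of RNA polymerase II, and 4932438A13Rik completed the 10. Ube2c-201 took 3.99% and 3.94% in myoblasts, 83.8% and 45.0% in reserve cells and 97.1% and 98.2% in myotubes. The gene total of Ube2c was 126 and 136 CPM in myoblasts and 91.6 and 167 CPM in myotubes. The 8 markers of dividing cells summed to 2356 and 2377 CPM in myoblasts and 241 and 255 CPM in myotubes. Whether reads of another gene entered the Ube2c counts was not tested. Rprd2-201 had no count in any library of myoblasts (0 of 2158 counts of the gene, which allows up to 0.139%) or of reserve cells (0 of 2524, up to 0.119%) and took 86.7% and 85.04% in myotubes. The 2 transcripts of 4932438A13Rik have the same coding sequence and start in different exons. The share of 4932438A13Rik-217 was 0.153% and 0% in myoblasts, 71.0% and 74.1% in reserve cells and 86.1% and 81.7% in myotubes.

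Members with other functions had rises over similar ranges. Among 11 genes of transcription and chromatin, such as Tcf20, Mllt6 and the Polycomb gene Phc1, the median rise was 51.9 points. It was 50 points among 10 genes of membrane traffic and the proton pump, such as Atp6v1h and Golgb1, 52.8 among 7 genes of the cell surface and the matrix, such as Itga7, the fibrillin gene Fbn1 and the acetylcholine receptor gene Chrnd, and 60.9 among 4 mitochondrial genes, which included Slc25a3, the β-oxidation enzyme Hadhb and the mitophagy receptor Bnip3l. The 5 genes of RNA binding and processing had a median rise of 46.9 points, the 5 of kinases and signalling one of 53.8, and the 4 of microtubules and the centrosome one of 55.4. The rises of the ribosomal genes Rps10 and Rps24 were 76.1 and 62.5 points. Both have many near-identical copies in the genome, and so has the Naca gene, so their reads may be shared with these.

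Members of these sets differed in where reserve cells stood, and those given here were picked after their values were seen. Nptn-206, without the 12 bases shown above, took 4.58% and 0% in myoblasts, 58.0% and 57.8% in reserve cells and 75.2% and 68.4% in myotubes, with tight reserve cell values nearer to myotubes. Bnip3l-202, of the mitophagy receptor, took 17.8% and 24.4%, 34.8% and 46.5%, and 78.9% and 83.4% in the same order, nearer to myoblasts. Rps24-205, with 393 against 390 coding bases, took 16.3% and 13.8%, 36.6% and 41.1%, and 77.3% and 77.9%. Libraries were apart by group in all 3 genes. Anxa7-202, with the 66 base exon, took 15.5% and 11.5% in myoblasts and 81.7% and 87.9% in myotubes, but 81.3% and 43.5% in reserve cells, which is a gap wider than that between some groups. Palld-204, which begins at another first exon, likewise took 6.37% and 5.05%, 40.1% and 78.3%, and 82.6% and 72.2%. Its reserve cell libraries lay on both sides of one myotube library.

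All 97 genes are annotated as protein coding, and what the rule did not use is how their 2 transcripts differ. The coding sequences differed in 74 of the 97 pairs (76.3%), were the same in 15 (15.5%) and were absent from at least 1 transcript in 8 (8.25%). For the 2 leading transcripts of all 6093 genes, these shares were 51.7%, 14.3% and 34.1%. Both transcripts were annotated as protein coding in 86 members (88.7%), against 57.9% of all genes, and 5 members (5.15%) had a retained intron transcript, against 24.4%. The first exons did not overlap in 27 members (27.8%; 36.5% of all genes) and the last exons did not in 13 (13.4%; 33.4%), while 61 (62.9%; 42.5%) shared both ends. These counts are descriptions, since the pairs of all genes were taken by their level and not by a switch.

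Where both transcripts code, the pairs were compared by their start, stop and length. Of 71 pairs in which both transcripts are protein coding and the coding sequences differ, 33 (46.5%; 37.7% of 2680 such pairs over all genes) kept the same start and stop codon. In 31 (43.7%; 33.3%) at most 100 bases in total were coding in either transcript but not in both. In 68 (95.8%; 87.3%) the coding lengths differed by a multiple of 3. The start codon differed in 20 pairs and the stop codon in 25. The myotube transcript was the longer one in 49 genes and the shorter one in 48.

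Where the 2 transcripts start in different exons, the sequence before each start can be compared. Of the 27 such genes, 21 had an entry in a RefSeq table of promoters (GRCm38.p6), and in 6 genes each start lay within 50 bases of an entry of its own. Tpm3 is shown, with 250 bases before each start, chr3:90079271-90079520 and chr3:90072401-90072650 on the plus strand, since its shares were among the tightest. Capitals mark the E-box CANNTG, a motif that muscle bHLH factors such as MyoD can bind and that reads alike on both strands.
Tpm3-201, myoblast transcript: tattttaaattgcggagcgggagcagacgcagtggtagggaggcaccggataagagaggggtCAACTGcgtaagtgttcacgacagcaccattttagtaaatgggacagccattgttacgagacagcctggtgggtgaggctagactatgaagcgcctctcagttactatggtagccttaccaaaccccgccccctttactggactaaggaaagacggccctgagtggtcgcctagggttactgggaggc
Tpm3-205, myotube transcript: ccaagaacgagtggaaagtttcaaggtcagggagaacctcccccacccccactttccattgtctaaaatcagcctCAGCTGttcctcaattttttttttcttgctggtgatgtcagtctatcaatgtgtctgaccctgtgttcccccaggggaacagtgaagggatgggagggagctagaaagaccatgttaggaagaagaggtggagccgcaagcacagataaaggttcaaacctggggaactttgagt
Each window held 1 E-box. The motif was in 66.2% of the 32851 windows of this length in the table. The letters TATAAA (12.4% of windows) and the MEF2 core CTATTTTTA (0.454%), searched on both strands, were in neither. A match is a description and not a bound site.

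Both transcripts differed in level in most members, which largely follows from the choice of the genes by the same counts. In myotubes the mean CPM of the myoblast transcript was at least 2-fold lower than in myoblasts in 82 of the 97 genes and that of the myotube transcript at least 2-fold higher in 81, and 66 genes had both. Slc25a3 showed the pattern with a small difference in the gene total. Its total was 538 and 553 CPM in myoblasts and 620 and 641 CPM in myotubes, and the fitted log2 fold change of 0.21 ± 0.04 (SE) is given with no test, as are all values of members in this contrast. The myoblast transcript was not lower in every gene. It was at least 2-fold higher in Pdlim3 and in Chrnd, singled out after their values were seen, whose gene totals were higher by 3.49 ± 0.05 and 3.15 ± 0.04 on the log2 scale.

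Gene totals of most members differed less than 2-fold. The fitted log2 fold change of the total from myoblasts to myotubes was between −1 and 1 in 68 genes, at least 1 in 23 and at most −1 in 6, with a median of 0.30 over the members and 0.0045 over all 15467 genes tested. Among the largest totals, Atp2a2 went from 426 and 436 to 2603 and 2633 CPM, Tpm1 from 626 and 616 to 1955 and 1914 CPM and Flnc from 641 and 617 to 1804 and 1807 CPM. In these genes both the total and the share of the myotube transcript were higher in myotubes. Scaling by library totals in place of the TMM factors (trimmed mean of M values) moved all fold changes of myotubes against myoblasts by −0.28 and those of reserve cells against myotubes by 0.21.

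**Figure D3:**
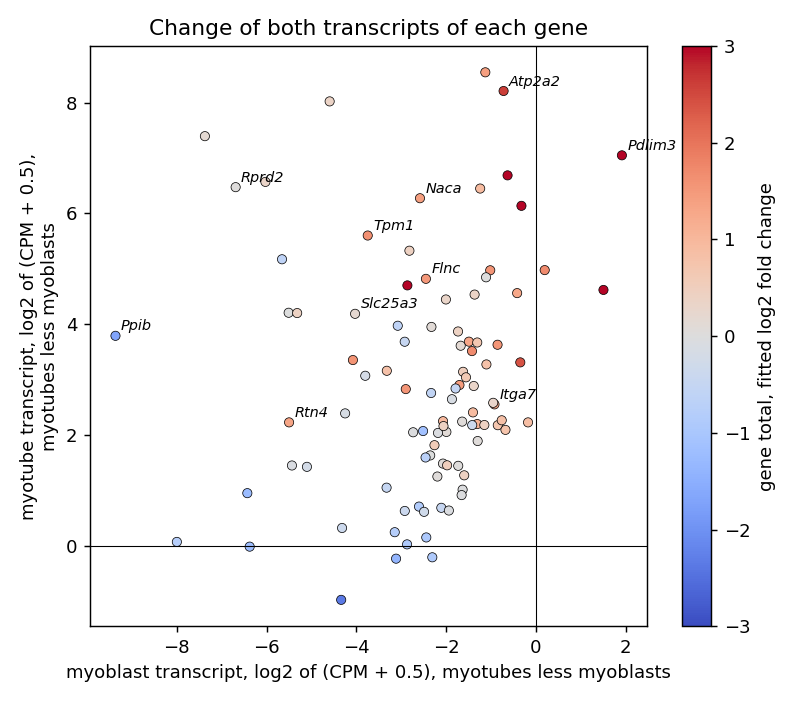
Change of the mean level from myoblasts to myotubes, as the difference of log2(CPM + 0.5), of the myoblast transcript (x axis) and the myotube transcript (y axis) of each of the 97 genes, coloured by the fitted log2 fold change of the gene total. Most points lie at the upper left, which largely follows from the choice of the genes, with 66 genes past 2-fold on both axes. Pdlim3 lies right of 0, and Ppib lies far left with a lower total.

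Reserve cells took no part in choosing the genes, so their shares can be tested, with the limit that the myoblast or myotube libraries they are compared with did take part. The first question was whether reserve cells keep the myoblast transcript. In 37 genes the myoblast transcript was dominant in both reserve cell libraries, in 27 the myotube transcript was, in 2 another transcript was, and in 31 the 2 libraries differed. The median share of the myotube transcript was 42.5% in reserve cells. On a scale where 0 is the mean share of myoblasts and 1 that of myotubes, the median position of reserve cells was 0.446, and 82 means lay between the other groups, 11 at or below myoblasts and 4 above myotubes. A place between is favoured by the rule, which sets the other groups far apart, and was not counted for other genes.

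The share of the myotube transcript was higher in reserve cells than in myoblasts in 17 of the 97 genes and lower in 0 at an adjusted p under 0.05 (edgeR's diffSpliceDGE on all 6 libraries, Benjamini-Hochberg over 28516 transcripts). This was 17.5% of the members, beside 0.438% of all transcripts tested that were called higher (0.235% lower, 0.673% in either direction). Of the 4964 dominant myotube transcripts of other genes with the minimum count, 0.181% were called higher and 0.0604% lower. Members were chosen by a low myoblast share of the tested transcript, and these other genes were not. A larger percentage in members is therefore partly built in by the rule. In simulated data at the spread of these transcripts, edgeR made more calls in unchanged genes than it recovered changed shares. All 97 myotube transcripts passed the filter on low counts, which the rule nearly fixes through the myotube libraries. The estimate was above 0 in 87 members, a sign that the rule also favours, and 40 had an unadjusted p under 0.05. With limma's diffSplice on the same counts 37 members were called, beside 1.56% of all transcripts in either direction, and with edgeR without the filter on low counts 9 were. The count was 7 without myoblast replicate 1, 11 without myoblast replicate 2, 9 without reserve cell replicate 1 and 10 without reserve cell replicate 2, when a group rests on 1 library whose spread is taken from the others.

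Of the 17 genes, 7 belonged to the set of actin, sarcomere and Z-disc genes, namely Tpm1, Tpm3, Flnc, Pdlim3, Pdlim7, Obsl1 and Palld. Tpm3 had a log2 ratio of shares of 6.72 ± 0.84 (SE; adjusted p = 0.00016, edgeR), Pdlim3 one of 3.84 ± 0.45 (adjusted p = 0.0007, edgeR) and Tpm1 one of 3.22 ± 0.75 (adjusted p = 0.019, edgeR). Flnc followed with 2.56 ± 0.36 (adjusted p = 0.023, edgeR) and Pdlim7 with 2.96 ± 0.44 (adjusted p = 0.024, edgeR). Obsl1, which encodes a cytoskeletal linker related to obscurin, and Palld, which encodes the actin-bundling protein palladin, were named after their values were seen. Obsl1-202 took 16.6% and 6.51% in myoblasts, 77.7% and 82.5% in reserve cells and 83.8% and 84.3% in myotubes.

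The other 10 genes had other functions. Naca had a log2 ratio of 4.71 ± 0.29 (adjusted p = 0.00033, edgeR) and Slc25a3 one of 3.59 ± 0.75 (adjusted p = 0.021, edgeR). For transcripts with 0 to 3 counts in myoblasts the fitted ratio depends on the fit, and shares are compared directly. The share of Pakap-203 in reserve cells was at least 423-fold that in myoblasts, and that of 4932438A13Rik-217 was 1120-fold, with a counting interval of 382 to 5420. Among members named after their values were seen, Atg13-201, of an autophagy gene, was at 0% and 0.121% in myoblasts and at 34.2% and 38.5% in reserve cells, and Clasp2-207, of a microtubule-tip protein, was at 0% in both and at 39.5% and 35.5%. Rapgef1-202, of a Rap1 exchange factor, went from 0.239% and 0% to 63.7% and 49.3%, and Atp6v1h-204, without 54 coding bases of a proton pump subunit, from 2.19% and 2.13% to 36.4% and 51.2%. Zfp593 and Ube2c made up the rest. Naca, Tpm3 and Atg13 were called under every one of the 11 alternatives tried, and 4932438A13Rik, Rapgef1 and Pdlim3 under 10. Other calls were less stable: Obsl1, Atp6v1h and Clasp2 were called under 7 of the 11, Slc25a3 and Palld under 6, Tpm1, Pdlim7 and Zfp593 under 5, Flnc and Pakap under 3 and Ube2c under 2. The call of Flnc was lost when any 1 of the 6 libraries was left out, and those of Tpm1, Pdlim7, Slc25a3 and Zfp593 without any 1 of the myoblast and reserve cell libraries.

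In the opposite comparison, the share was lower in reserve cells than in myotubes in 3 members (3.09%) and higher in 0, beside 0.26% of all transcripts called lower (0.47% higher, 0.729% in either direction) and 0.141% of the same 4964 transcripts, by edgeR's diffSpliceDGE at an adjusted p under 0.05. The reserve cell libraries are the same in both comparisons, and the limit set by the choice of the genes holds here too. The 3 were Rprd2, Lrrc8a and Rps10. The estimate was below 0 in 91 of the 97 genes, a sign that the rule favours too. In 8 genes the unadjusted p was under 0.05, while limma's diffSplice called 34. A count of 3 with edgeR therefore does not show that the other genes reached the myotube share. Rprd2-201 was at least 721-fold higher in myotubes, where alone it had counts, so it passed the filter on low counts only through the myotube libraries. Lrrc8a, a subunit of the volume-regulated anion channel, had a share of 27.7% and 11.2% in myoblasts, 0.723% and 0.572% in reserve cells and 76.3% and 68.7% in myotubes, the lowest position of all members (log2 ratio to myotubes −6.78 ± 0.68, adjusted p = 0.0061, edgeR). Its 2 transcripts have the same coding sequence. Rps10-203 took 10.5% and 14.1%, 13.1% and 9.92%, and 86.3% and 90.4% (log2 ratio to myotubes −2.94 ± 0.43, adjusted p = 0.016, edgeR). When either reserve cell library was left out, Rprd2 was the only one of the 3 still called, and Rps10 was also lost without either myotube library.

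The ends of the scale show how far members differ from each other. The highest positions belonged to Wdr36, Twf2 and Csnk1d. Twf2-204, of the actin-binding protein twinfilin, took 13.1% and 11.6% in myoblasts, 66.8% and 84.5% in reserve cells and 73.6% and 69.1% in myotubes. Csnk1d-201, of casein kinase 1δ, took 47.1% and 49.1%, 95.8% and 95.3%, and 91.0% and 97.8%, and Wdr36-201, of a ribosome biogenesis protein, took 13.6% and 37.5%, 77.1% and 72.6%, and 74.9% and 66.1%. The lowest positions belonged to Lrrc8a, Ndrg2 and Cog8. Cog8-201, of a Golgi tethering complex, took 35.1% and 5.50% in myoblasts, 0% and 24.2% in reserve cells and 58.3% and 69.7% in myotubes. None of Wdr36, Twf2, Csnk1d, Ndrg2 and Cog8 passed the threshold in either comparison.

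Positions were not higher where replicates were tight. In the 51 genes with replicates within 20 points in all groups, the median position was 0.39 and 42 means lay between the other groups. In the 31 genes with replicates within 10 points in all groups, the median position was 0.441, 26 means lay between the other groups, and in 24 genes both reserve cell libraries lay strictly between all myoblast and all myotube libraries. Over the 97 genes this was so in 51. In 66 genes both reserve cell libraries lay above both myoblast libraries and in 75 below both myotube libraries. The rule sets the myoblast and myotube means at least 40 points apart, which favours all these counts. The same counts were not made for other genes. The position of 0.446 stands beside summed myotube markers at 23.3% of the myotube level in the same libraries, and the part of myotube RNA in the reserve cell shares was not tested. In bulk RNA, fewer cells of a type and less RNA per cell cannot be told apart.

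**Figure D4:**
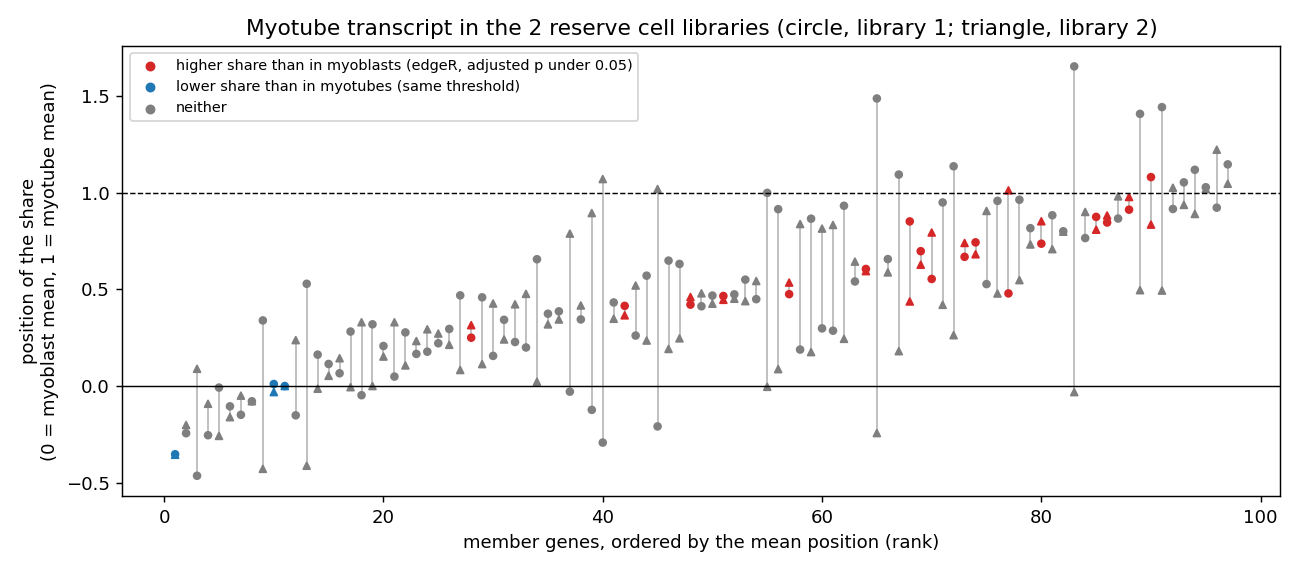
Position of each reserve cell library (circle, library 1; triangle, library 2) on a scale from the mean myoblast share (0, solid line) to the mean myotube share (1, dashed line) for each of the 97 genes, ordered by their mean (x axis, rank). Red marks the 17 genes called higher than myoblasts and blue the 3 called lower than myotubes, and long grey lines mark genes whose 2 libraries disagree, of which 7 differ by more than 50 points of share.

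Gene totals of the members were tested in the same libraries. Reserve cells differed from myoblasts in 64 of the 97 totals (66.0%), 39 higher and 25 lower, by edgeR's quasi-likelihood test at an adjusted p under 0.05. Of all 15467 genes, 46.1% were called, 24.3% higher and 21.8% lower, and of the 6471 other genes with the minimum count 58.3% were, 30.8% higher and 27.5% lower. With library totals for scaling the split was 33 higher and 31 lower. The median log2 fold change was 0.10 in members and 0.015 in all genes. Against myotubes, 72 totals (74.2%) differed, 20 higher and 52 lower, beside 55.6% of all genes (28.4% higher and 27.2% lower) and 70.4% of the other genes with the minimum count (30.6% higher and 39.8% lower). The medians were −0.26 and 0.0067. Here library totals gave 26 higher and 42 lower.

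Gene totals of some muscle genes lay between the other groups. Atp2a2 had 1035 and 1027 CPM in reserve cells, 1.26 ± 0.03 (log2, SE) above myoblasts (adjusted p = 1.2e-08, edgeR) and 1.34 ± 0.03 below myotubes (adjusted p = 1.3e-08, edgeR). Tpm1 had 1132 and 1140 CPM, 0.87 ± 0.03 above myoblasts (adjusted p = 9.3e-08, edgeR), and Pdlim3 had 188 and 189 CPM, against 66.7 and 70.5 in myoblasts and 778 and 763 in myotubes. Tpm3, Slc25a3, Capzb, Ndrg2 and Pdlim7 did not follow this order, with the lowest mean total in reserve cells. The total of Tpm3 was 287 and 278 CPM in reserve cells, 424 and 410.1 in myoblasts and 539 and 538 in myotubes (log2 fold change against myoblasts −0.56 ± 0.04, adjusted p = 8.6e-06, edgeR). Slc25a3 had 439 and 426 CPM in reserve cells (−0.33 ± 0.04 against myoblasts, adjusted p = 0.00016, edgeR).

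Fbn1, a matrix gene that is also on the list of reserve cell markers, had the largest difference from myotubes of all members and was named after its values were seen. Its total was 289 and 280 CPM in myoblasts, 200 and 203 in myotubes and 1209 and 1239 in reserve cells (2.60 ± 0.04 above myotubes, adjusted p = 2.9e-09, edgeR). The share of Fbn1-202, which has the same coding sequence as Fbn1-201, was 44.8% and 3.37% in myoblasts, 8.03% and 18.3% in reserve cells and 95.2% and 79.3% in myotubes. The gene was thus at its highest where this share was low.

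The splicing regulators on the list were tested between myotubes and myoblasts, since none on the list is a member. Of 59 regulators tested, 50 changed (84.7%), 11 higher and 39 lower in myotubes, by edgeR's quasi-likelihood test at an adjusted p under 0.05. The background was 65.3% of all genes, 32.6% higher and 32.7% lower, and 77.3% of the other genes with the minimum count, 43.3% higher and 34.1% lower. The median log2 fold change was −0.39 over the regulators. Among families, 10 of 11 hnRNP genes fell and Hnrnph2 rose, 9 of 10 SR genes (Srsf) fell and 0 rose, and all 3 Ptbp and all 3 Mbnl genes fell. Both Rbfox genes tested rose, Rbfox2 with a change of sign under scaling by library totals. In the Clk family 2 of 4 genes rose and 0 fell, while 1 of 5 Celf genes rose and 2 fell, and 1 of 3 Srpk genes rose and 1 fell.

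Among regulators that passed the test, the 5 largest increases were of Rbfox1, Srpk3, Rbm38, Rbm24 and Clk4. Rbm24, which encodes an RNA-binding protein that favours muscle exons, had 23.3 and 23.4 CPM in myoblasts, 147 and 150 in reserve cells and 311 and 329 in myotubes (3.78 ± 0.06 on the log2 scale, adjusted p = 5.6e-10, edgeR). Its relative Rbm38 rose from 14.8 and 11.0 to 286 and 278 CPM (4.46 ± 0.12, adjusted p = 1.1e-08, edgeR), with 76.5 and 78.3 in reserve cells. The SR protein kinase gene Srpk3, a muscle gene, rose from 1.28 and 1.29 to 54.2 and 57.6 CPM (5.43 ± 0.18, adjusted p = 3.8e-08, edgeR). Rbfox1 had 0 and 4 counts in myoblasts, 123 and 143 in reserve cells and 286 and 674 in myotubes, and passed the test with an adjusted p of 4.9e-06 (edgeR), with a fold that rests on these few counts. Clk4, a kinase of SR proteins, rose by 0.85 ± 0.09 (adjusted p = 3.75e-05, edgeR).

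The 5 largest decreases among them were of Celf4, Ptbp1, Mbnl3, Srsf9 and Ptbp3. Ptbp1, a repressor of many muscle and neural exons, had 465 and 446 CPM in myoblasts, 274 and 269 in reserve cells and 102 and 91.6 in myotubes (−2.24 ± 0.06, adjusted p = 9.6e-09, edgeR). Its paralog Ptbp3 had 212 and 225, 163 and 163, and 64.4 and 64.4 CPM (−1.76 ± 0.06, adjusted p = 2.6e-08, edgeR). Srsf9 fell from 57.9 and 52.9 to 14.6 and 16.5 CPM, and Mbnl3 from 12.6 ± 0.773 to 3.51 ± 0.635 CPM (SD, n = 2). Celf4 had 355 and 336 counts in myoblasts, 13 and 15 in reserve cells and 2 and 2 in myotubes. Reserve cell means lay between the other groups for 33 of the 39 regulators that fell and 8 of the 11 that rose. These were picked by a change between the other groups, which favours a place between. The share of all changed genes with this order was not computed, so the counts are not particular to regulators. Under scaling by library totals, Rbfox2 changed sign, from 0.25 to −0.03, and so did Srpk2, Srsf5 and Clk3, which had not passed the test. Regulators and switches are set side by side here, and no relation between them was tested.

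**Figure D5:**
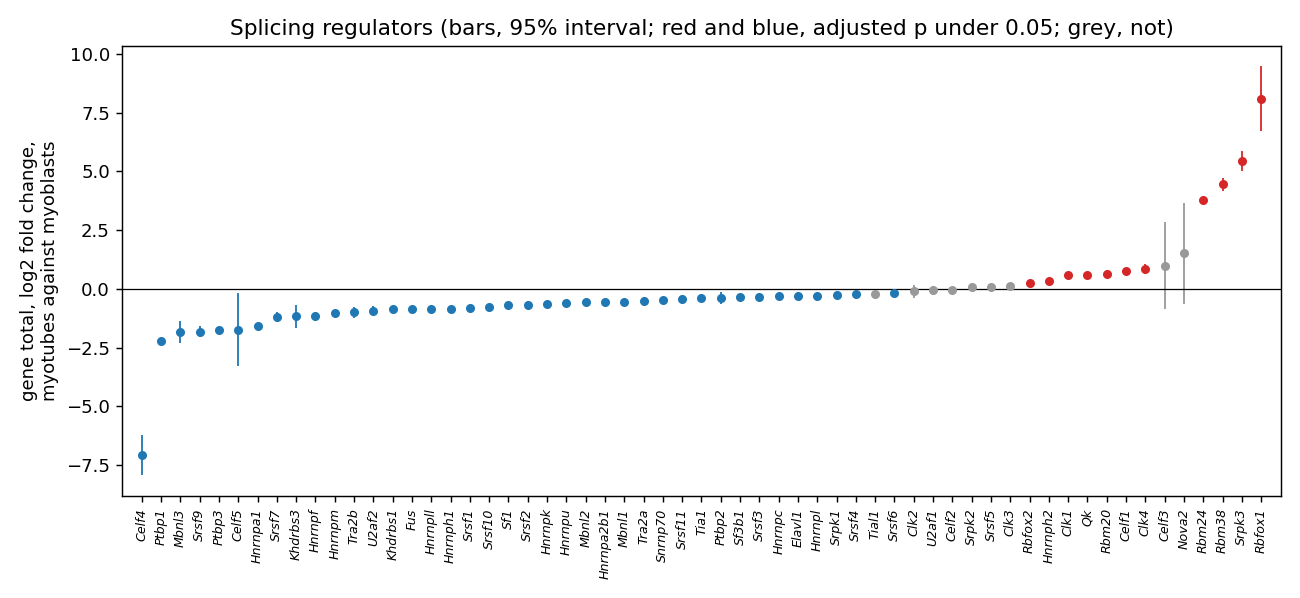
Fitted log2 fold change of the gene total in myotubes against myoblasts (y axis) with 95% intervals for the 59 splicing regulators tested, ordered by size (x axis). Red points (11) are higher and blue points (39) lower in myotubes at an adjusted p under 0.05 by edgeR, with Rbm24 at 3.78 and Ptbp1 at −2.24.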

How the data were processed

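RNA of 6 C2C12 libraries was measured. Paired-end reads were mapped to mm10 with HISAT2 and SAMtools, and the authors deposited the StringTie estimated count of each transcript as a whole number. DESeq2 also stands in the submitters' notes. Versions and strandedness were not stated, and the annotation release was not given in the sources used here. StringTie divides reads between overlapping transcripts, so a share depends on that division and on transcript length, and reads of antisense or near-identical genes cannot be told apart. A table of the whole series with 6 columns for the same libraries was not used.

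Transcripts were paired with genes through GENCODE M21 (GRCm38), and 141374 of 142604 were. The 1230 others held 0.375% to 0.872% of a library and stayed out of all gene sums. Shares and structures were computed in Python 3.11.15 with pandas 2.3.3. Groups came from the labels. Totals of 15658875 to 20055078 counts per library gave shares with half-widths (95%, Wilson) of at most 5.66 points.

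Tests used edgeR 4.0.16 in R 4.3.3 on all 6 libraries (filterByExpr with a minimum count of 10, TMM, glmQLFit), glmQLFTest for gene sums and diffSpliceDGE for transcripts, with Benjamini-Hochberg adjustment over all features and a threshold of 0.05. The log2 ratio of shares is the coefficient of diffSpliceDGE on a base 2 scale, and its SE was derived from its F statistic. The p-values do not follow from this SE in every gene. For Itga7, reserve cells against myoblasts gave 0.87 ± 0.25 with an unadjusted p of 0.158 (edgeR's diffSpliceDGE). The SE of a log2 ratio of shares can therefore understate the uncertainty of the test. CPM of gene totals use TMM factors, and CPM of single transcripts use library totals. A share of 0 counts was given the limit that 3 counts of the gene total set. Alternatives were RLE factors, library totals, no filter, a replicate block, DESeq2 1.42.0, limma 3.58.1, the 4 compared libraries alone and each library left out, and other thresholds, lengths and transcript classes for the list. The edgeR and limma fits of reserve cells against myoblasts were tested on simulated data. At the spread of these transcripts, with shares changed in 200 genes, edgeR recovered 13.6% of the changed shares and limma 56.3%. In the same data edgeR called 40 transcripts of unchanged genes and limma 23. With edgeR these calls outnumbered the recovered shares, so its threshold of 0.05 did not hold the error rate there. A share that was not called may thus still differ, and a called share may be false.

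The members and all lists were chosen with earlier results of these data known. Genes named are the 10 largest rises, members on the list of muscle isoforms, the 5 with the highest CPM, the 3 highest and 3 lowest reserve cell positions, the 3 on each side of the threshold, and the 5 regulators with the largest increases and decreases. Others are said to have been named after their values were seen. A few items are not reported here.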

Additional observations from a re-analysis of the deposited data

How the results depend on the processing

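The list itself depends on its thresholds and libraries. It had 50 genes with a minimum of 1000 counts and 64 with a rise of at least 0.5, and it had 167 to 190 when 1 of the 4 libraries was left out, since 1 library then decides a dominant transcript. Of the 97 genes, 85 to 91 were also on those lists (87.6% to 93.8% of the 97, 47.2% to 52.7% of the longer lists). Shares per length gave 106 genes, 81 of them shared. Higher shares in reserve cells than in myoblasts were called in 9 members without the filter, 37 with limma and 7 to 14 when 1 library was left out. Lower shares than in myotubes were called in 34 members with limma and in 1 to 4 when 1 library was left out. For these 2 counts the cause was not tested. Counts of changed gene totals and of changed splicing regulators stayed within 1.5 times the value given under all 12 alternatives tried for each. Groups share replicate numbers in the labels, but nothing says that a number marks a shared culture, and the deviations of same-numbered libraries from their group means were correlated across genes with r between −0.032 and 0.040, where genes are not independent replicates. With the replicate number as a block, 9 members were called higher than myoblasts, in place of 17, and 3 lower than myotubes. Depth limits single shares to half-widths of at most 5.66 points, less than many gaps between replicates.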
